A study of Mus musculus with 15 samples.

Results

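The Nduf genes encode most of the nuclear-encoded part of respiratory complex I and the proteins that help to build it. They were followed here in perivascular fat of mice with an adipocyte-directed deletion of Prdm16 and of control mice. The members were all protein-coding mouse genes whose symbol starts with Nduf, and 46 of the 43352 rows of the count table met this rule. All 46 passed the filter on low counts, which kept 19645 genes. They comprised 36 nuclear subunit genes of complex I and 8 Ndufaf assembly factors. The other 2 were Ndufa4, whose protein is now placed with complex IV, and its relative Ndufa4l2. Among the 36 subunit genes were 7 core subunits, 9 accessory subunits of the matrix arm, 19 of the membrane arm, and Ndufab1, the mitochondrial acyl carrier protein.

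Complex I oxidises NADH from fuel breakdown, passes the electrons along a chain of iron-sulfur clusters to ubiquinone, and pumps protons across the inner mitochondrial membrane. Its matrix arm holds the NADH site and the clusters, and its membrane arm holds the pumps, whose core proteins are encoded by the mitochondrial mt-Nd genes. Accessory subunits surround this core, and assembly factors join the modules and then leave. Brown fat is rich in mitochondria and dissipates the proton gradient as heat through Ucp1.

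RNA was sequenced from fat around the thoracic aorta (tPVAT) and the abdominal aorta (aPVAT) of mice aged 11 weeks. The knockout mice (PRDM16cKO, here cKO) carried Prdm16flox and AdipoQCre+, a Cre transgene under adiponectin regulatory sequence, which is active mainly in adipocytes, so other cells of the tissue keep the gene. The control mice carried Prdm16flox without the Cre. There were 3 libraries of aPVAT cKO, 4 of aPVAT control, 4 of tPVAT cKO and 4 of tPVAT control. Whether each library of a group is a mouse of its own is not stated in the labels. The p-values therefore reflect how far these libraries scatter, which may be technical. Library totals were 37.8 to 68.7 M counts. The share of structural RNA genes was highest in aPVAT cKO 4 (2.45%) and next in aPVAT control 2 (0.985%). The remaining libraries ranged from 0.0762% to 0.233%. Prdm16, counted over the whole gene, stood at 22.4 ± 1.07 CPM in tPVAT cKO and 47.3 ± 6.04 CPM in tPVAT controls (SD, n = 4 each). In aPVAT it stood at 16.1 ± 1.99 CPM in cKO (n = 3) and 23.7 ± 2.22 CPM in controls (n = 4), and it fell in both depots (−0.57 in aPVAT, edgeR adjusted p = 0.00992, and −1.08 in tPVAT, adjusted p = 2.22e-06). CPM are counts per M of a library's total, scaled between libraries by the trimmed mean of M-values (TMM).

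Promoters were available for 40 of the 46 members. Many nuclear genes of the respiratory chain are known to be controlled by NRF1, by the ETS factor GABPA and by the oestrogen-related receptors (ERR). Stretches of 120 bases before the RefSeq transcription start (GRCm38.p6) of 4 members are given here, 5′ to 3′ on the gene's strand. Ndufa11 and Ndufaf4 are shown because both hold the palindromic NRF1 consensus, which stands in capitals in their lines, and Ndufa11 fell in tPVAT cKO (-0.29, adjusted p = 0.0146) while Ndufaf4 did not pass the test. Ndufaf1 holds the ETS letters CCGGAAG, and Ndufv3, the member with the smallest p in tPVAT, holds none of the motifs marked. The ETS letters also stood in this stretch of Ndufs3 and Ndufb7, which fell in tPVAT cKO. Like Ndufaf1, Ndufaf8 held them and did not pass. Capitals mark matches to the NRF1 consensus, the ETS letters, the ERR letters AAGGTCA and the YY1 letters AAGATGGC, on either strand.
Ndufa11 (chr17:56717642-56717761, plus strand): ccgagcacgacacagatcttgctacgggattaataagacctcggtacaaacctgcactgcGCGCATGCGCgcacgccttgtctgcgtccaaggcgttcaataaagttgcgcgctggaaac
Ndufaf4 (chr4:24897963-24898082, plus strand): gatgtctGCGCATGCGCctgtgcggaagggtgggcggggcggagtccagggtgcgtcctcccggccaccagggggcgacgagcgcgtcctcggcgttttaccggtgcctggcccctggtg
Ndufaf1 (chr2:119662835-119662954, minus strand): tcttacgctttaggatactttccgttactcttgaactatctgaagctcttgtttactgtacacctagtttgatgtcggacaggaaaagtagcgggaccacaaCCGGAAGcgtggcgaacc
Ndufv3 (chr17:31519995-31520114, plus strand): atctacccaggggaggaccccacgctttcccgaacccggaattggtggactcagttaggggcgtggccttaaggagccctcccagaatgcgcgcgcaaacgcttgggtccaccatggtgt
The NRF1 consensus started 60 bases before the start of Ndufa11 and 113 bases before that of Ndufaf4, and the ETS letters 18 bases before that of Ndufaf1. Over windows from 250 bases before to 50 after the start, the NRF1 consensus stood in 3 of 40 member genes (7.5%) and in 1.0% of all 32851 promoters of that length. With its 2 central bases left free (which includes every match of the stricter form), it stood in 11 member genes (27.5%) and in 6.2% of all promoters. The ETS letters stood in 6 member genes (15.0%) and 8.9% of promoters, and the ERR letters in 3 (7.5%) and 4.7%. The YY1 letters stood in 8 member genes (20%) and 2.7% of promoters. In all 8 the match began downstream of the transcription start, between transcript bases 11 (Ndufaf8) and 39 (Ndufb8). The YY1 letters contain the triplet ATG, and whether the matches are start codons was not examined. The CCAAT box stood in 35.0% of member genes and 37.4% of promoters, the GC box GGGCGG in 52.5% and 35.7%, and TATAAA in 10% and 13.6%. These matches describe letters only, and no binding was measured.

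Per kilobase of the annotated transcript, Ndufa4 was the most abundant member in all 4 groups, followed by the membrane arm subunits Ndufb9 and Ndufb8. In tPVAT controls these levels were 860, 702 and 683 CPM per kilobase. The assembly factors ranged there from 8.78 (Ndufaf6) to 29.1 CPM per kilobase (Ndufaf1). The lowest member in tPVAT controls was Ndufa4l2 at 8.02 CPM per kilobase. Transcripts of Ndufs5, Ndufb4, Ndufa12 and Ndufab1 are among those with nearly identical processed copies elsewhere in the genome, so their own levels are uncertain.

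The comparison in tPVAT asked what loss of Prdm16 in adipocytes changed in thoracic fat. Of the 46 members, 35 fell in tPVAT cKO and 0 rose at an adjusted p under 0.05 (edgeR quasi-likelihood test, Benjamini-Hochberg over all 19645 genes). Over all genes tested, 6.61% fell and 5.44% rose. The median log2 fold change of the members was −0.34, a 1.27-fold difference, against −0.01 for all genes. Of the 5292 genes whose mean level lay within the range of the subunit genes, 10.8% fell and the median was −0.02. Of the 46 log2 fold changes 44 lay below 0, as did 52.1% of all genes. In 38 members every cKO library was below every control library, which held for 12.2% of all genes.

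**Figure D1:**
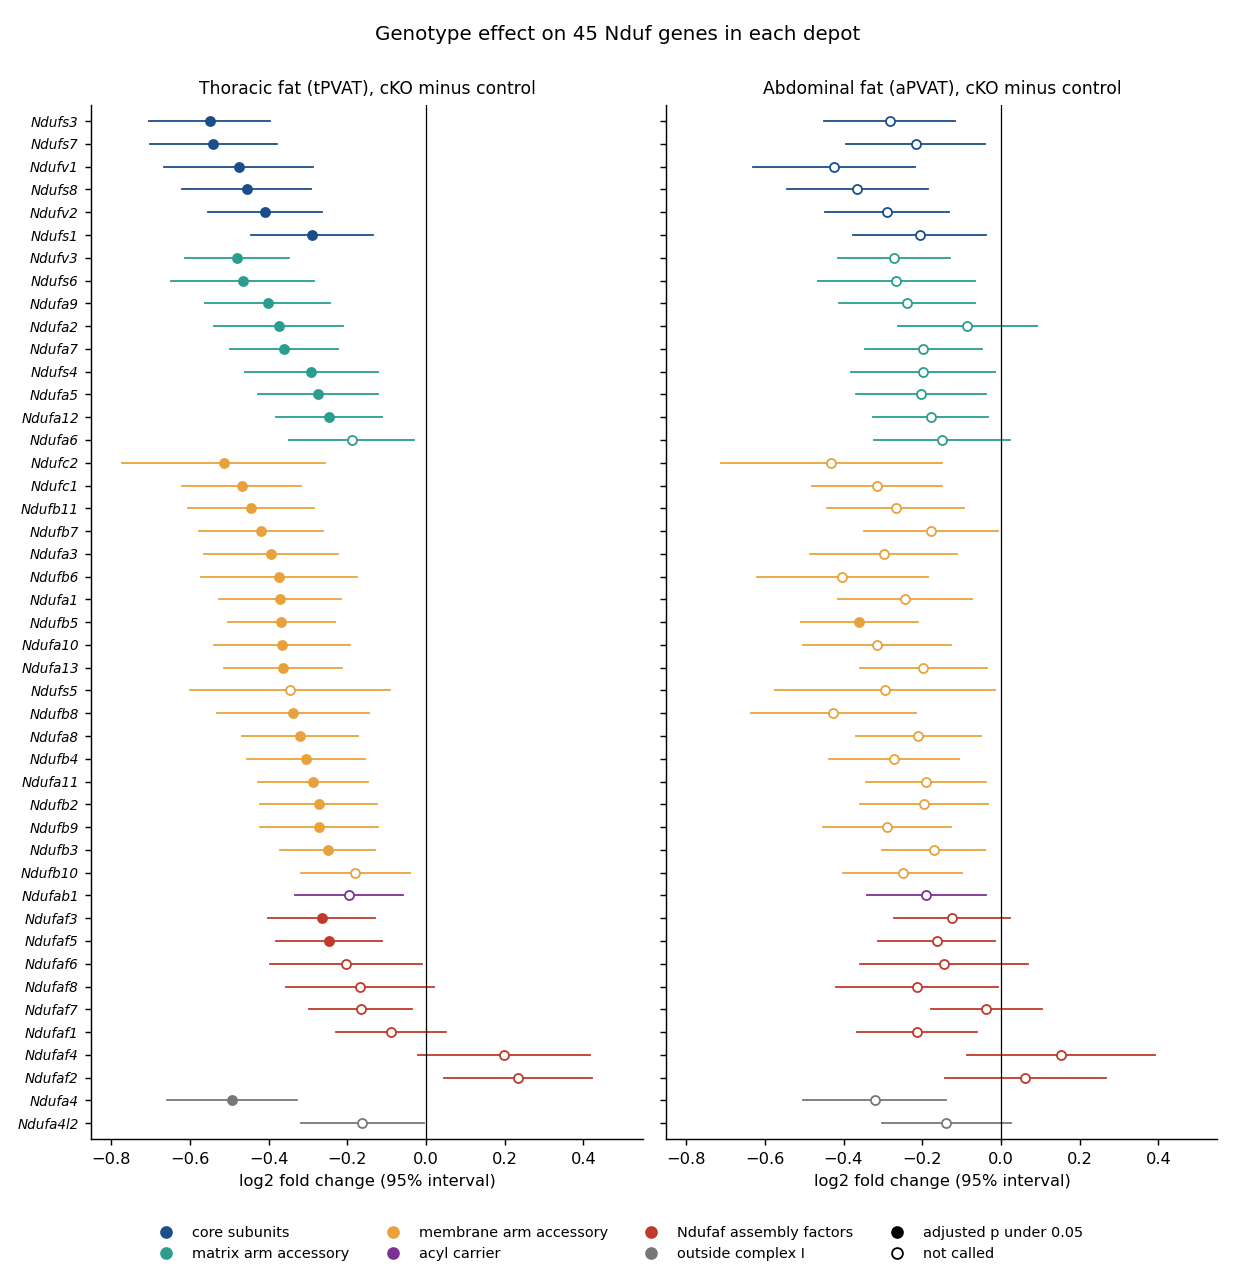
Log2 fold changes of 45 Nduf genes, cKO minus control, with 95% intervals, in tPVAT (left) and aPVAT (right), coloured by role. Filled points passed an adjusted p of 0.05; all 35 subunit genes shown lie left of 0 in both depots, and Ndufaf2 and Ndufaf4 lie right of 0.

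All 7 core subunit genes fell in tPVAT cKO, with a median log2 fold change of −0.46. Ndufs3 (ENSMUSG00000005510, chromosome 2, 90894634 to 90904827, minus strand, GRCm38), a core protein of the ubiquinone module, stood at 104, 94.6, 105 and 110 CPM in tPVAT cKO 1 to 4, against 160, 152, 150 and 143 CPM in tPVAT controls 1 to 4. The highest cKO library was thus well below the lowest control library. It fell by 0.55 on the log2 scale (SE 0.0783, adjusted p = 0.00022), that is by 31.7%.

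Ndufs7 (chromosome 10, 80249121 to 80256794, plus strand), which holds the last cluster before ubiquinone, stood at 98.1, 90.5, 106 and 104 CPM in tPVAT cKO and 147, 148, 142 and 142 CPM in tPVAT controls. The groups did not overlap (−0.54, SE 0.0824, adjusted p = 0.000412). Ndufv2 (chromosome 17, 66078638 to 66101559, minus strand), an iron-sulfur protein of the NADH module, stood at 390, 360, 414 and 407 CPM in tPVAT cKO and 524, 514, 532 and 514.5 CPM in tPVAT controls. Its controls lay within a narrow band above all cKO libraries (−0.41, SE 0.0739, adjusted p = 0.00178). Ndufv1, the NADH-binding flavoprotein, stood at 368, 329, 397 and 399 CPM in tPVAT cKO and 537, 506, 517 and 517 CPM in tPVAT controls (−0.48, adjusted p = 0.00391). Ndufs8, which carries clusters, stood at 162.5, 141, 174 and 166 CPM in tPVAT cKO and 218, 225, 229.8 and 209 CPM in tPVAT controls (−0.46, adjusted p = 0.00196). In both, every cKO library lay below every control library. Ndufs1, the largest matrix arm protein, had the smallest decrease among the core genes, 404, 367, 422 and 438 CPM in tPVAT cKO against 528, 467, 520 and 479 CPM in tPVAT controls (−0.29, SE 0.0794, adjusted p = 0.0256). Ndufs1 no longer passed without tPVAT control 1, tPVAT control 3, tPVAT cKO 1 or tPVAT cKO 2 (adjusted p = 0.0627 to 0.0787).

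**Figure D2:**
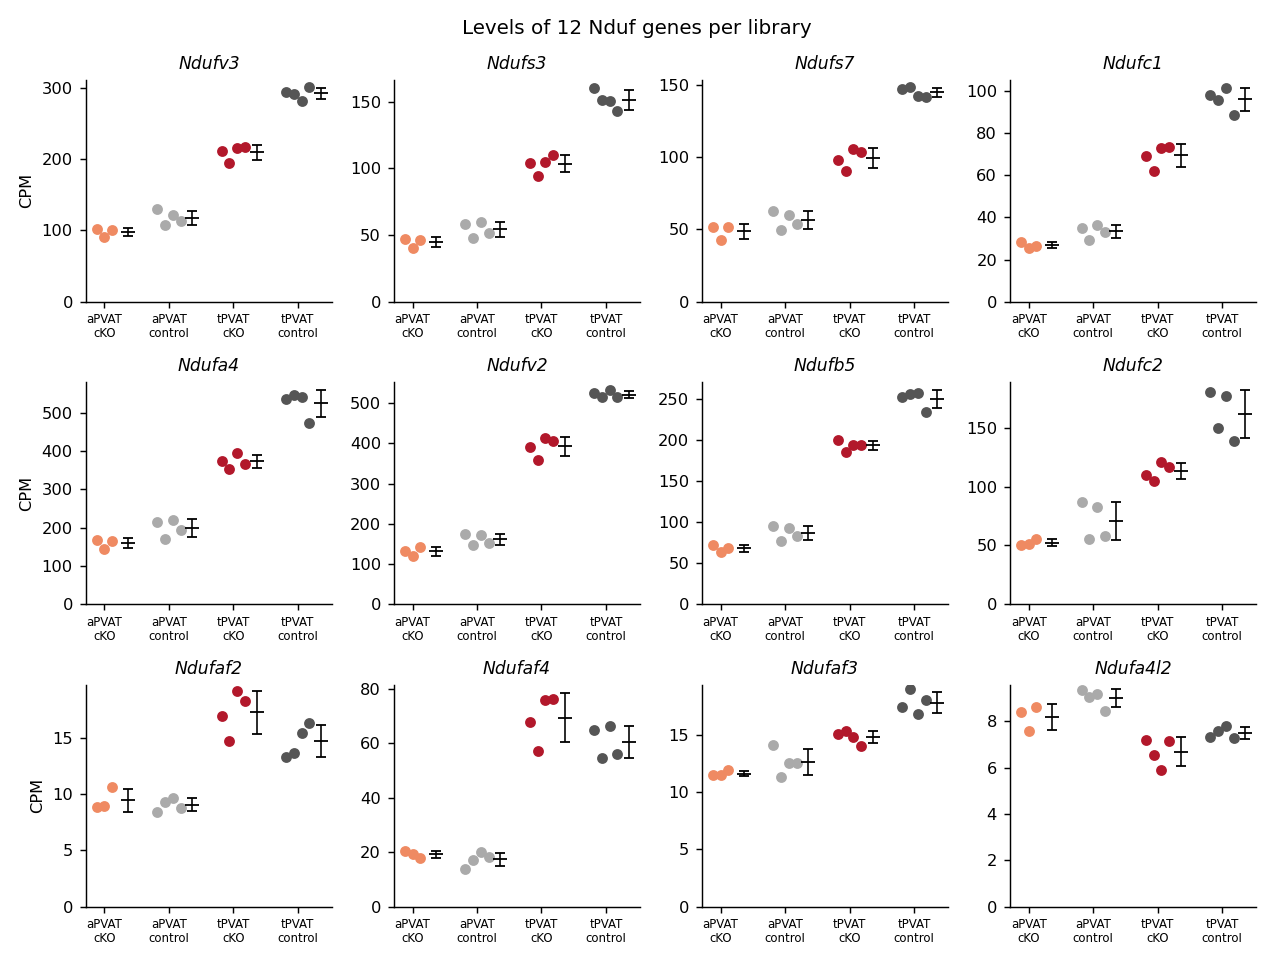
CPM of 12 Nduf genes in every library (points), with the mean and SD of each group beside them; the axes start at 0. The libraries of tPVAT cKO and tPVAT control part for Ndufs3, Ndufs7, Ndufv2, Ndufv3, Ndufc1, Ndufa4 and Ndufb5, and overlap for Ndufaf2 and Ndufaf4.

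Of the 9 accessory genes of the matrix arm, 8 fell in tPVAT cKO, with a median of −0.36. Ndufv3 (ENSMUSG00000024038, chromosome 17, 31520115 to 31531331, plus strand), a small subunit of the NADH module, had the smallest p of all members. It stood at 212, 194, 216 and 217.5 CPM in tPVAT cKO and 295, 292, 282.5 and 301 CPM in tPVAT controls (−0.48, SE 0.0669, adjusted p = 0.000181). The lowest control library was well above the highest cKO library. Ndufs6, which stabilises the NADH module, fell by 0.47 on the log2 scale and Ndufa9, at the junction of the arms, by 0.40. Ndufs4, whose loss causes a fatal encephalopathy in mice, fell by 0.29 (adjusted p = 0.0366). The Ndufs4 call was absent in 8 of 25 alternatives, 6 of which left out a single tPVAT library (tPVAT control 1, 2 or 3, or tPVAT cKO 1, 2 or 4), with adjusted p up to 0.09805. Ndufa6, an acyl carrier-binding subunit, did not pass. It stood at 205.5, 179, 217 and 217 CPM in tPVAT cKO and 229, 233, 244 and 225 CPM in tPVAT controls, and the groups did not overlap (−0.19, SE 0.0812, adjusted p = 0.152).

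Of the 19 accessory genes of the membrane arm, 17 fell in tPVAT cKO, with a median of −0.36. Ndufc1 (chromosome 3, 51404677 to 51408988, minus strand), a small membrane subunit, stood at 69.1, 62.1, 73.2 and 73.4 CPM in tPVAT cKO and 98.4, 95.9, 101.5 and 88.5 CPM in tPVAT controls. No cKO library reached the lowest control (−0.47, SE 0.0769, adjusted p = 0.000802). Its neighbour in the complex, Ndufc2, had the largest decrease of the membrane arm genes, at 110, 105, 121 and 117 CPM in tPVAT cKO against 181, 150, 177 and 139 CPM in tPVAT controls (−0.51, SE 0.131, adjusted p = 0.0172). Ndufc2 no longer passed when tPVAT control 1 (adjusted p = 0.0586) or tPVAT control 3 (adjusted p = 0.0537) was left out. Ndufb10 and Ndufs5, both subunits on the intermembrane space side, did not pass. Ndufb10 stood at 208, 204, 225 and 229 CPM in tPVAT cKO and 248.6, 243, 244 and 245 CPM in tPVAT controls (−0.18, adjusted p = 0.118). Ndufs5 stood at 31.15, 37.8, 32.55 and 35.9 CPM in tPVAT cKO and 46.01, 52.6, 42.3 and 33.5 CPM in tPVAT controls, where control 4 lay among the cKO libraries (−0.35, SE 0.129, adjusted p = 0.0986). The acyl carrier gene Ndufab1 stood at 78.95, 68.95, 77.3 and 82.5 CPM in tPVAT cKO and 92.2, 82.1, 88.9 and 89.4 CPM in tPVAT controls (−0.20, adjusted p = 0.0843).

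Of the 8 Ndufaf genes, 2 fell in tPVAT cKO, and the median was −0.17. Ndufaf3, which acts in building the ubiquinone module, stood at 15.1, 15.3, 14.8 and 14.04 CPM in tPVAT cKO and 17.4, 19.0, 16.8 and 18.0 CPM in tPVAT controls (−0.27, SE 0.0695, adjusted p = 0.0201). Ndufaf5, whose human counterpart hydroxylates NDUFS7, stood at 17.2, 15.1, 15.6 and 16.4 CPM in tPVAT cKO and 20.4, 19.5, 19.2 and 17.1 CPM in tPVAT controls (−0.25, SE 0.0686, adjusted p = 0.0278). Its highest cKO library lay just above its lowest control. Neither call was stable. Ndufaf3 did not pass in 5 of 25 alternatives, among them those without tPVAT control 2 (adjusted p = 0.0694), tPVAT control 4 (0.0509) or tPVAT cKO 4 (0.0626). Ndufaf5 did not pass in 8, among them those without tPVAT control 1 (0.0927), 2 (0.0742) or 3 (0.0623), or without tPVAT cKO 2 (0.0674), 3 (0.07695) or 4 (0.0501).

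Ndufaf2 and Ndufaf4 were the only members with a positive log2 fold change in tPVAT. Ndufaf2, a relative of Ndufa12 that takes its place during assembly, stood at 17.0, 14.75, 19.2 and 18.3 CPM in tPVAT cKO and 13.4, 13.7, 15.5 and 16.4 CPM in tPVAT controls. The groups overlapped, and the difference did not pass (0.23, SE 0.0962, adjusted p = 0.1345). Ndufaf2 did pass with library size scaling alone (0.30, adjusted p = 0.0278) and by limma voom (0.24, adjusted p = 0.0453). Exons of Ndufaf2 share 65.6% of their bases with the lincRNA gene B230220B15Rik on the opposite strand, and the strand setting of the counts is not stated. Ndufaf4, which works with Ndufaf3, stood at 67.8, 57.1, 75.8 and 76.3 CPM in tPVAT cKO and 64.9, 54.5, 66.2 and 55.9 CPM in tPVAT controls (0.20, SE 0.112, adjusted p = 0.286).

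The remaining assembly factors did not pass. Ndufaf1, part of the membrane arm assembly complex, stood at 39.05, 37.3, 41.3 and 40.98 CPM in tPVAT cKO and 42.15, 43.99, 41.04 and 41.7 CPM in tPVAT controls (−0.09, adjusted p = 0.464). Ndufaf6, needed for early membrane arm assembly, stood at 8.31, 7.33, 8.435 and 8.92 CPM in tPVAT cKO and 9.28, 9.52, 10.8 and 8.37 CPM in tPVAT controls (−0.20, adjusted p = 0.205). Both had overlapping groups. Ndufaf7, a methyltransferase, stood at 29.9, 29.02, 29.98 and 29.7 CPM in tPVAT cKO and 33.9, 32.02, 33.6 and 33.6 CPM in tPVAT controls (−0.17, adjusted p = 0.124). Ndufaf8, the partner of Ndufaf5, stood at 12.1, 10.35, 12.5 and 12.9 CPM in tPVAT cKO and 13.5, 13.6, 12.98 and 13.7 CPM in tPVAT controls (−0.17, adjusted p = 0.291). In both of these every cKO library lay below every control library, though by a narrow margin in Ndufaf8. Of 12 assembly factors with other names, 4 fell in tPVAT cKO, with a median of −0.16. These were Dmac2 (−0.39, adjusted p = 0.00233), Ecsit (−0.40, adjusted p = 0.00419), Foxred1 (−0.34, adjusted p = 0.00558) and Tmem186 (−0.34, adjusted p = 0.0418). Their products act in assembling the membrane arm or, for Foxred1, a late intermediate.

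Ndufa4 (chromosome 6, 11900292 to 11907497, minus strand) also fell in tPVAT cKO. It stood at 374, 354, 395 and 367 CPM in tPVAT cKO and 537, 546.5, 541 and 473 CPM in tPVAT controls (−0.49, SE 0.08485, adjusted p = 0.0012). Ndufa4l2, a hypoxia-inducible relative, stood at 7.185, 6.54, 5.89 and 7.15 CPM in tPVAT cKO and 7.30, 7.57, 7.81 and 7.27 CPM in tPVAT controls (−0.16, SE 0.0796, adjusted p = 0.215).

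The summed level of the 36 subunit genes was 6390, 5819, 6787 and 6683 CPM in tPVAT cKO 1 to 4 and 8444, 8208, 8447 and 8011 CPM in tPVAT controls 1 to 4. Means were 6420 ± 434 CPM in tPVAT cKO and 8278 ± 210 CPM in tPVAT controls (SD, n = 4 each), so cKO stood at 77.6% of control. The library tPVAT cKO 2 was the lowest of its group for 35 of the 36 genes, and without it 26 members fell. With any single library left out, 25 to 36 members fell. Of the 35 calls, 22 held in all 25 alternatives. Those of Ndufa5, Ndufa11, Ndufa12, Ndufb2, Ndufb4, Ndufb6, Ndufb8, Ndufb9, Ndufc2, Ndufs1, Ndufs4, Ndufaf3 and Ndufaf5 were lost in at least 1. The summed level of the 8 Ndufaf genes was 207 ± 14.7 CPM in tPVAT cKO and 210 ± 6.01 CPM in tPVAT controls, with overlapping libraries. Ndufaf4, whose log2 fold change was positive, had the highest level of the 8 in every tPVAT library. The log2 fold changes of 6 of the 8 were negative (list median −0.17). In bulk tissue, fewer cells of a type and less RNA per cell cannot be told apart.

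**Figure D3:**
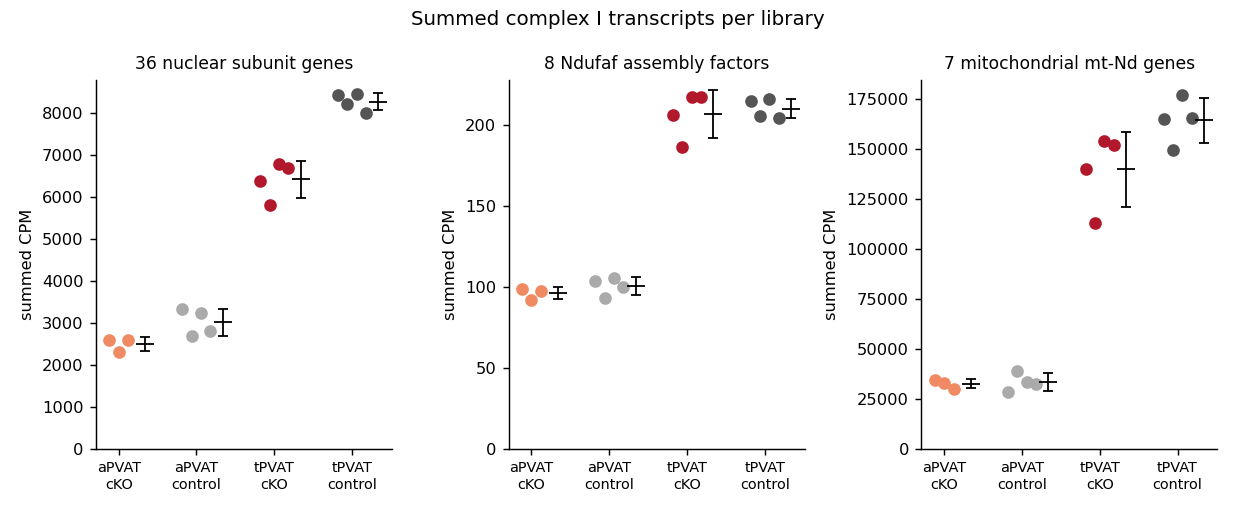
Summed CPM per library (points), with group mean and SD, for the 36 nuclear subunit genes, the 8 Ndufaf genes and the 7 mt-Nd genes. The nuclear subunit sum lies at 5819 to 6787 CPM in tPVAT cKO and 8011 to 8447 CPM in tPVAT controls, while the Ndufaf sums of these groups overlap. Of the 8 Ndufaf genes, Ndufaf4 has the highest level in every tPVAT library.

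Markers of several cell types moved with genotype in tPVAT. Heart muscle markers fell for 4 of 8 genes (Ryr2, Nppa, Myl4 and Actc1), and all 8 had lower means in tPVAT cKO. Their summed level was 88.0 to 229 CPM in tPVAT cKO and 234 to 312 CPM in tPVAT controls. Nppa was near 0 throughout, at 0.02 to 0.21 CPM in tPVAT cKO and 0.32 to 0.95 CPM in tPVAT controls. Among the tPVAT cKO libraries the heart sum and the subunit sum had the same order. In cKO 2, 1, 4 and 3 the heart markers stood at 88.0, 116, 191 and 229 CPM. The subunit genes stood at 5819, 6390, 6683 and 6787 CPM in these libraries. The share of mitochondrial genes in the counts had this order too (26.5%, 30.1%, 31.4% and 31.6%). The reason for the shared order was not tested. Brown adipocyte markers fell for 3 of 10 genes (Otop1, Kng2 and Cox8b), with sums of 5655 to 6954 CPM in tPVAT cKO and 8986 to 9750 CPM in tPVAT controls. Of the 10 brown markers, 9 lay below 0 (median −0.53). Endothelial markers fell for 3 of 6 (sums 706 to 733 CPM in tPVAT cKO and 799.8 to 896.5 CPM in tPVAT controls), pericyte markers for 4 of 7 (583 to 730.5 CPM in tPVAT cKO and 705 to 745 CPM in tPVAT controls) and the smooth muscle marker Des alone of 6 (1821 to 2003 CPM in tPVAT cKO and 2120 to 2785 CPM in tPVAT controls). General adipocyte markers rose for 3 of 8 (Adipoq, Plin1 and Fabp4), with sums of 19000 to 21070 CPM in tPVAT cKO and 15590 to 17110 CPM in tPVAT controls. The part of these other cells in the decrease of the subunit genes was not tested.

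The 7 mt-Nd genes encode the core of the membrane arm on the mitochondrial genome. Of these, only mt-Nd3 passed in tPVAT, at 2771, 2405, 3254 and 2754 CPM in tPVAT cKO and 3456, 3450, 4058 and 3301 CPM in tPVAT controls (−0.35, SE 0.108, adjusted p = 0.0455). The groups did not overlap, and the highest cKO library lay close below the lowest control. All 7 were below 0, with a median of −0.26. The summed mt-Nd level was 139800 ± 18850 CPM in tPVAT cKO and 164400 ± 11370 CPM in tPVAT controls (SD, n = 4 each), or 85% of control. The poly(A) selection of the libraries bears on these genes, whose transcripts carry short tails.

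The other complexes of the respiratory chain were examined in the same way. All 4 genes of complex II fell in tPVAT cKO, with a median of −0.46. Sdhd, a membrane anchor, fell by 0.60 on the log2 scale (adjusted p = 0.000139) and Sdhb, the iron-sulfur subunit, by 0.53. All 9 genes of complex III fell (median −0.42), with cytochrome c1 (Cyc1) at 392.2 ± 33.4 CPM in tPVAT cKO and 604 ± 15.7 CPM in tPVAT controls. Of 13 genes of complex IV, 10 fell (median −0.36). Of 16 genes of ATP synthase, 11 fell and 2 rose (median −0.32): the inhibitor Atpif1 (0.38, adjusted p = 0.00167) and the c-ring gene Atp5g3 (0.37, adjusted p = 0.00181). Among 8 enzymes and carriers that bring electrons to ubiquinone by other routes, 5 fell, namely Chdh, Etfa, Etfb, Gpd2 and Etfdh (median −0.43). Of 18 genes listed for mitochondrial import, channels and inner membrane organisation, 3 fell (Cs, Tomm22 and Phb2, list median −0.12). Of these, Cs encodes the matrix enzyme citrate synthase, which has none of the functions that name the list. Whether these lists differ from the Nduf genes was not tested.

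**Figure D4:**
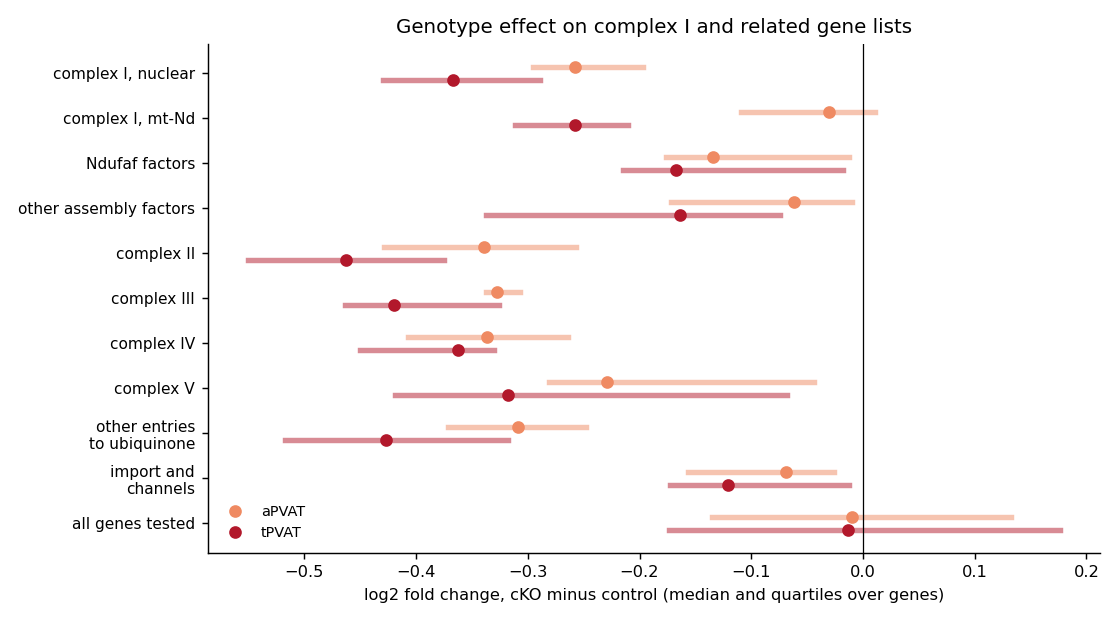
Median log2 fold change (cKO minus control) with quartiles over the genes of each list, in aPVAT and tPVAT. In tPVAT the medians of the nuclear subunit lists of complexes I to V lie between −0.46 and −0.32, and those of the Ndufaf genes and of the import and channel list at −0.17 and −0.12. The import and channel list also holds the citrate synthase gene Cs.

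Of 13 regulators of nuclear respiratory genes, 2 fell in tPVAT cKO. The coactivator Ppargc1b stood at 31.6 ± 5.02 CPM in tPVAT cKO and 51.8 ± 6.28 CPM in tPVAT controls (−0.71, adjusted p = 0.00151). The fatty acid receptor Ppara stood at 76.0 ± 2.26 CPM in tPVAT cKO and 100.8 ± 8.35 CPM in tPVAT controls (−0.41, adjusted p = 0.0256). Esrra did not pass (−0.36, adjusted p = 0.0575), nor did Nrf1 (−0.11), Gabpa (0.22), Yy1 (0.05) and Ppargc1a (0.19). In aPVAT cKO 3 of the 13 regulators fell, where 0.789% of all genes did. All 13 lay below 0, as did 52.0% of all genes. Their log2 fold changes ranged from −0.999 to −0.0047 (median −0.06).

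Processed copies limited the reading of a few members. Of the 46 members, 12 had a copy elsewhere of at least 90% identity over at least 200 bases, and for 6 of them the copies held over 10% of the member's own counts. These were Ndufs5 (348%), Ndufab1 (265%), Ndufb4 (256%), Ndufa12 (134%), Ndufs3 (45.5%) and Ndufs6 (21.9%). Of the 30 subunit genes outside these 6, 28 fell in tPVAT cKO. With the copies' reads added to their parent, an alternative chosen after seeing the data, 34 members fell: Ndufa12 (−0.16, adjusted p = 0.2) and Ndufb4 (−0.24, adjusted p = 0.0534) no longer passed, and Ndufab1 did (−0.25, adjusted p = 0.0385). Exons of Ndufb6 share 39.0% of their bases with Smim27 and those of Ndufa13 30.0% with Tssk6, both on the opposite strand. Exons of Ndufb9 share 19.5% with Gm49356 on the same strand.

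The comparison in aPVAT asked the same of abdominal fat. Of the 46 members, 1 fell in aPVAT cKO and 0 rose. Over all genes tested, 0.789% fell and 0.743% rose. The number of members that fell was 11 by DESeq2 and 10 with library size scaling alone. The log2 fold changes nevertheless lay below 0 for 44 members, against 52.0% of all genes, with a median of −0.22 against −0.01 for all genes. At an unadjusted p under 0.05 there were 35 members, against 12.4% of all genes. In 19 members every cKO library was below every control library, which held for 5.8% of all genes.

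Ndufb5 (ENSMUSG00000027673, chromosome 3, 32736990 to 32751566, plus strand), a membrane arm accessory subunit, was the member that fell. It stood at 72.1, 63.8 and 68.1 CPM in aPVAT cKO 1, 3 and 4 and 95.4, 77.2, 93.0 and 83.3 CPM in aPVAT controls 1 to 4 (−0.36, SE 0.0759, adjusted p = 0.024). Its libraries did not overlap, but Ndufb5 no longer passed when aPVAT control 1 (adjusted p = 0.0515), control 3 (0.0682), cKO 3 (0.104) or cKO 4 (0.079) was left out, or with the aPVAT libraries fitted alone (0.214). In tPVAT the same gene stood at 199.8, 186, 194 and 194 CPM in cKO and 252.5, 256, 257 and 234 CPM in controls (−0.37, SE 0.0696, adjusted p = 0.00244).

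The next members by p did not pass in aPVAT. Ndufv1 stood at 115, 104 and 119 CPM in aPVAT cKO and 176, 128.5, 167 and 133 CPM in aPVAT controls (−0.42, SE 0.105, adjusted p = 0.0605). Ndufs8 stood at 52.6, 48.75 and 50.8 CPM in aPVAT cKO and 72.9, 58.1, 71.5 and 58.8 CPM in aPVAT controls (−0.37, SE 0.0913, adjusted p = 0.0623). In both genes controls 1 and 3 stood above controls 2 and 4, and all controls above all cKO libraries. Ndufb8 stood at 113, 94.7 and 112 CPM in aPVAT cKO and 164, 126, 159 and 124 CPM in aPVAT controls (−0.43, SE 0.107, adjusted p = 0.0646). Ndufc1 stood at 28.6, 25.7 and 26.4 CPM in aPVAT cKO and 35.2, 29.2, 36.4 and 33.0 CPM in aPVAT controls (−0.32, adjusted p = 0.086). Ndufv3 stood at 102, 91.05 and 101 CPM in aPVAT cKO and 130, 108, 121 and 113 CPM in aPVAT controls (−0.27, adjusted p = 0.0872). All 4 controls exceeded all 3 cKO libraries for these genes too.

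The subunit sum in aPVAT was 2593, 2301 and 2601 CPM in cKO and 3322, 2680, 3240 and 2808 CPM in controls, with means of 2498 ± 171 CPM in cKO (SD, n = 3) and 3012 ± 316 CPM in controls (n = 4). The cKO mean was 82.9% of control. The controls fell into a higher pair (1 and 3) and a lower pair (2 and 4), and aPVAT control 2, the lowest for 32 of 36 genes, was one of the libraries with more structural RNA. Without it, 12 members fell. Ndufaf2 and Ndufaf4 were the 2 members above 0. Ndufaf2 stood at 8.84, 8.935 and 10.7 CPM in aPVAT cKO and 8.43, 9.35, 9.71 and 8.78 CPM in aPVAT controls (0.06, adjusted p = 0.845). Ndufaf4 stood at 20.4, 19.4 and 17.8 CPM in aPVAT cKO and 13.9, 17.2, 19.9 and 18.3 CPM in aPVAT controls (0.15, adjusted p = 0.643). The libraries overlapped for both. The mt-Nd sum was 32490 ± 2335 CPM in aPVAT cKO and 33320 ± 4448 CPM in aPVAT controls, and none of the 7 genes passed (0 at an unadjusted p under 0.05).

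Brown adipocyte markers fell for 8 of 10 genes in aPVAT cKO, with sums of 130 to 191 CPM in cKO and 717 to 1224 CPM in controls. As in the subunit sum, controls 1 and 3 were the higher pair. Ucp1 was at 18.9 ± 25.1 CPM in aPVAT cKO and 546 ± 210 CPM in aPVAT controls (−4.84, adjusted p = 0.00169). The subunit sum thus stood at 82.9% of control where the sum of brown markers stood at 16.7%. Macrophage markers lay below 0 for 6 of 6 genes (median −0.49), and 0 passed, with 5 at an unadjusted p under 0.05. Their sums were 244 to 343.5 CPM in aPVAT cKO and 352 to 463 CPM in aPVAT controls, which did not overlap. Fibroblast and lymphocyte markers had medians of −0.23 and −0.50, with 0 passing (2 of 6 each at an unadjusted p under 0.05). Heart markers did not pass in aPVAT, with sums of 25.6 to 28.05 CPM in cKO and 23.2 to 27.8 CPM in controls. In the other complexes 2 of 4 genes of complex II, 1 of 9 of complex III (Uqcrc1) and 4 of 13 of complex IV fell. In ATP synthase 0 fell (10 of 16 had an unadjusted p under 0.05) and Atp5g3 rose. The part of these other cells in the aPVAT levels of the Nduf genes was not tested.

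Whether the genotype effect differed between depots was tested as an interaction, the effect in aPVAT less that in tPVAT. No member passed (0 of 46 by edgeR, DESeq2 and limma voom), where 0.784% of all genes did. At an unadjusted p under 0.05 there were 3 members, against 8.85% of all genes. The interaction lay below 0 for 8 members and above 0 for the other 38, where 51.1% of all genes lay below 0. Its median was 0.08 for the members and −0.01 for all genes. Ndufs7 had the smallest p: its effect was −0.22 in aPVAT and −0.54 in tPVAT, a difference of 0.32 (SE 0.121, 95% interval 0.0866 to 0.561, adjusted p = 0.384). It was followed by Ndufa2 (0.29, adjusted p = 0.496) and Ndufs3 (0.27, adjusted p = 0.502). The larger number of calls in tPVAT is thus not shown to be a difference between the depots.

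The depots themselves were compared within each genotype, aPVAT minus tPVAT. In control mice 45 members were lower in aPVAT and 1 was higher, against 27.3% and 29.3% of all genes. The median log2 fold change was −1.37, a 2.58-fold lower level, where the median of all genes was 0.04. Core subunits had a median of −1.61, matrix arm accessory subunits −1.35, membrane arm accessory subunits −1.38 and the Ndufaf genes −0.91. In cKO mice the counts were again 45 and 1, against 25.4% and 27.2% of all genes, with a median of −1.27.

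**Figure D5:**
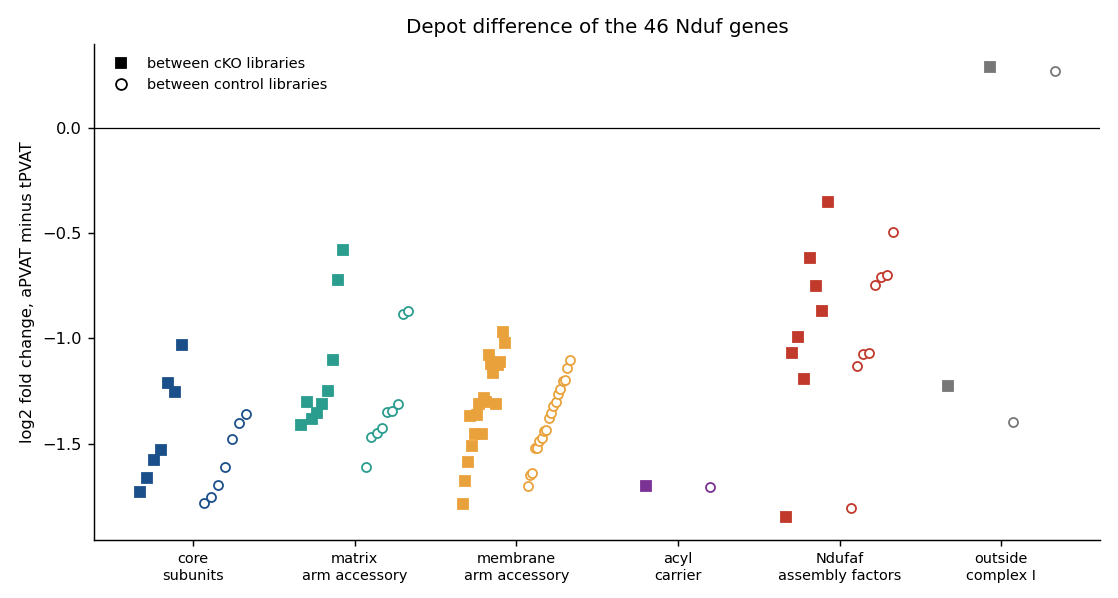
Log2 fold changes of the Nduf genes between depots, aPVAT minus tPVAT, in cKO (squares) and control mice (open circles). All members lie below 0 in both genotypes except Ndufa4l2 (Ndufaf2, Ndufaf3 and Ndufaf8 turn positive in controls, and Ndufa2, Ndufaf3 and Ndufaf7 in cKO, with library size scaling alone), and the Ndufaf genes span from −0.49 (Ndufaf3) to −1.80 (Ndufaf4) in controls.

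The members with the largest depot difference in controls were Ndufaf4, Ndufv1, Ndufs8 and Ndufab1. Ndufaf4 stood at 13.9, 17.2, 19.9 and 18.3 CPM in aPVAT controls and 64.9, 54.5, 66.2 and 55.9 CPM in tPVAT controls (−1.80, a 3.49-fold difference, adjusted p = 2.92e-09). Ndufv1 differed by −1.78, Ndufs8 by −1.75 and Ndufab1, at 26.5, 25.5, 29.3 and 26.7 CPM in aPVAT controls, by −1.71. The smallest decreases were those of other assembly factors. Ndufaf3 stood at 14.1, 11.3, 12.6 and 12.6 CPM in aPVAT controls and 17.4, 19.0, 16.8 and 18.0 CPM in tPVAT controls (−0.49, adjusted p = 1.8e-05). Ndufaf2 differed by −0.70, Ndufaf8, at 8.845, 7.43, 7.91 and 8.71 CPM in aPVAT controls, by −0.71, and Ndufaf7 by −0.75. With scaling by library size alone, the differences of Ndufaf2, Ndufaf3 and Ndufaf8 in controls turned positive. Ndufaf3 and Ndufaf4, which work as a pair, thus lay at opposite ends of the order. Ndufa4l2 was the member higher in aPVAT, at 9.36, 9.03, 9.19 and 8.46 CPM in aPVAT controls and 7.30, 7.57, 7.81 and 7.27 CPM in tPVAT controls (0.27, SE 0.0784, adjusted p = 0.00859). In cKO mice it differed by 0.29 (adjusted p = 0.00928).

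Brown adipocyte markers were lower in aPVAT controls for 10 of 10 genes (sums of 717 to 1224 CPM in aPVAT controls and 8986 to 9750 CPM in tPVAT controls) and heart muscle markers for 8 of 8 (23.2 to 27.8 CPM and 234 to 312 CPM in the same groups). Skeletal muscle markers were lower for 7 of 8. Markers of other cells were higher in aPVAT controls, for 6 of 6 macrophage, 6 of 6 sympathetic neuron, 4 of 6 fibroblast, 4 of 6 lymphocyte and 4 of 6 endothelial genes. Their sums were 182%, 221%, 196%, 222% and 124% of those in tPVAT controls, in that order. Their part in the depot difference of the Nduf genes was not tested. The depot values also rest on the scaling between libraries. Mitochondrial genes took 13.3% to 13.9% of counts in aPVAT cKO, 13% to 16% in aPVAT controls, 26.5% to 31.6% in tPVAT cKO and 33.4% to 36.4% in tPVAT controls. With scaling by library size alone, the median of all genes moved to 0.784 in controls and 0.694 in cKO, and the member medians were −0.62 and −0.61. In controls 39 members were then lower and 2 higher, and in cKO 40 and 2. The 7 mt-Nd genes were all lower in aPVAT controls, with a median of −2.25, beside −1.43 for the nuclear subunits; this difference was not tested.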

How the data were processed

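Poly(A)-selected, stranded mRNA libraries were sequenced, per the labels' protocols. The authors deposited raw counts per gene for 15 libraries (43352 genes). The submitters' processing notes name mm10, Salmon, Subread and DESeq2 1.42.1; which tool counted, on which annotation and strand, is not given in the sources used here. Gene names came from GENCODE, which held 98% of the identifiers.

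The counts were filtered with filterByExpr (minimum count 10; 19645 genes, 99.98% of counts) and scaled by TMM. All 4 groups were fitted together with edgeR 4.0.16 (R 4.3.3), with quasi-likelihood tests and Benjamini-Hochberg adjustment over all genes tested (threshold 0.05; common biological coefficient of variation 0.142). DESeq2 1.42.0, limma 3.58.1, other scalings and filters, leaving out libraries and replicate blocks were alternatives. The model was tested on simulated data.

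The members, gene lists and tests were chosen with earlier results of these data known. Values of every library were given for members fixed by rule: the 6 smallest p in each genotype contrast, the 4 largest and smallest depot differences, the assembly factors, Ndufa4, Ndufa4l2 and members without a call in tPVAT. Others were named as examples. A library of aPVAT cKO numbered 2 and the gene Ndufb1 were not analysed here. Individual values of 1 member are not reported here.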

Additional observations from a re-analysis of the deposited data

Results flagged for a closer look

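In 144 groups of 4 libraries, a single library stood apart from the rest of its group in 2 cases by Dixon's criterion, which chance gives in about 1 in 20 groups. Ndufa2 stood at 49.06 CPM in aPVAT control 2, against 57.91 to 58.88 CPM in the other aPVAT controls. Ndufa4 stood at 473.0 CPM in tPVAT control 4, against 536.6 to 546.5 CPM in the other tPVAT controls.

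Among the genes of the other complexes, the genotype effect of Cox7a1, a complex IV subunit used as a brown adipocyte marker, differed between the depots. Its log2 fold change was −3.35 in aPVAT and −0.53 in tPVAT, a difference of −2.83 by the interaction test (edgeR adjusted p = 0.000597). It stood at 2.19 ± 0.884 CPM in aPVAT cKO (SD, n = 3) and 22.5 ± 7.12 CPM in aPVAT controls (n = 4), and at 157 ± 35.5 CPM in tPVAT cKO and 226.5 ± 16.6 CPM in tPVAT controls (n = 4 each).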

How the results depend on the processing

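Under 25 alternatives, 22 of the 35 members that fell in tPVAT cKO kept their call throughout, 21 of them subunits. Scaling by library size alone gave 28 lower and 1 higher (Ndufaf2, 0.30) in tPVAT with a median of −0.27, 10 lower in aPVAT, and depot medians of −0.62 (controls) and −0.61 (cKO) with 2 higher in each. It turned the depot difference positive for Ndufaf2 (0.0485), Ndufaf3 (0.25) and Ndufaf8 (0.0403) in controls, and for Ndufa2 (0.0699), Ndufaf7 (0.0316) and Ndufaf3 (0.30) in cKO. Of all genes, it called 1501 higher and 743 lower in tPVAT, where TMM gave 1069 and 1298. The weighted limma voom fit gave 1 higher in tPVAT (Ndufaf2, 0.24). In aPVAT the number lower was 2 without the filter on low counts, 11 by DESeq2, 6 without aPVAT control 2 and aPVAT cKO 4 together and 0 with the compared libraries fitted alone. The cause was not tested.

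Leaving out 1 library at a time, 25 to 36 members were lower in tPVAT (median −0.36 to −0.29) and 0 to 12 in aPVAT (median −0.27 to −0.18). The aPVAT count was 12 without aPVAT control 2, 4 without control 4, 3 without tPVAT cKO 2, and 0 without aPVAT control 1, control 3, cKO 3 or cKO 4. Depot counts stayed at 45 and 1, and no member passed the interaction. Deviations of same-numbered libraries from their group means correlated at −0.222 to 0.169 across all genes tested, not over 0.1 in every pair. Both ends of this range came from aPVAT cKO against aPVAT controls, which differ in genotype and cannot share an animal. Between the depots of the same genotype the range was −0.03 to 0.165. No aPVAT control correlated best with the tPVAT control of its own number, and among aPVAT cKO libraries only number 4 did so with tPVAT cKO. These values do not settle whether same-numbered libraries share an animal. With a replicate block on the number, 35 were lower in tPVAT and 4 in aPVAT. The depot contrasts had a separate fit, blocked on genotype and number, which treats same-numbered libraries of a genotype as if they shared an animal. Its depot counts were 45 and 1. The 3 or 4 libraries a group limit every comparison.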

Other observations

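Ndufc2 was picked out after its values were seen. It was higher in controls 1 and 3 than in controls 2 and 4 in both depots, at 86.9, 55.1, 82.3 and 58.2 CPM in aPVAT controls 1 to 4 and 181, 150, 177 and 139 CPM in tPVAT controls 1 to 4. As a share of the summed subunit CPM this was 2.62%, 2.06%, 2.54% and 2.07% in aPVAT controls and 2.14%, 1.83%, 2.1% and 1.73% in tPVAT controls. The shares were 1.94% to 2.23% in aPVAT cKO and 1.72% to 1.8% in tPVAT cKO. Ndufs5, also chosen after its values were seen, took its lowest share of the controls in control 4 of both depots, 0.488% in aPVAT and 0.419% in tPVAT. Whether equally numbered libraries share an animal is not stated in the labels.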
